A study of Mus musculus with 4 samples.

Results

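Antigen presentation was examined in fibroblasts from 4T1 mouse mammary tumours through 36 genes: the heavy and light chains of major histocompatibility complex (MHC) class I, the MHC class II chains, and the genes that cut, transport, load and regulate them. The members were given as a list of gene names, and 36 of 36 were found among the 22456 genes of the deposited table. They comprised 21 class I genes, 11 class II genes, and 4 genes that serve both classes or general folding (Calr, Canx, Pdia3 and Rfx5).

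The comparison was GSK, 2 libraries, against DMSO, 2 libraries. In the GSK group the 4T1 cells, a Balb/c mammary carcinoma line, had been kept in 5 µM GSK269962A for 5 days before they were placed orthotopically in Balb/cAnN mice. In the DMSO group the cells had received the vehicle. The treatment was thus given to the cancer cells, and the fibroblasts came from the tumours these cells formed. Fibroblasts of both groups were what remained after cells bearing CD45 (leukocytes), CD31 (endothelium), CD326 (epithelium) or human CD2 (the antigen by which cancer cells were removed) had been retained on magnetic columns in 2 rounds. No marker selected the fibroblasts themselves, so other unlabelled mesenchymal cells, such as pericytes, would be kept. Nothing in the labels tells whether replicate libraries came from separate animals, so the spread behind each p-value is that between libraries and may be technical.

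Class I molecules present peptides cut in the cytosol. Proteasomes, in their immune form with the subunits Psmb8, Psmb9 and Psmb10, cut proteins, the Tap1-Tap2 transporter moves the peptides into the endoplasmic reticulum, and tapasin (Tapbp) with calreticulin and Pdia3 loads them on a heavy chain bound to β2-microglobulin. Nearly all cells carry class I and show it to CD8+ T cells and natural killer cells. Class II molecules present peptides from endosomes to CD4+ T cells, are guided there by the invariant chain (Cd74), and are made mainly by dendritic cells, macrophages and B cells, although interferon-γ can switch them on in fibroblasts. Both classes are driven from promoters with an S-X-Y module, bound by the RFX complex, CREB-type factors and NF-Y, on which Nlrc5 (class I) or Ciita (class II) assembles.

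For the X2 box of that module the CRE half-site TGACG was searched, and for the Y box CCAAT. Only these exact letters were counted, so a module with other X2 letters would be missed in either class. H2-Eb1 and H2-DMb1 of class II hold tgatgatg before an ATTGG, and H2-Q6 of class I holds tgacc before one. These genes counted as lacking the pair. RefSeq upstream windows on GRCm38.p6, 250 bases before a start site, were given for 29 of the 36 members. H2-T24, Tap2, Tapbpl, Nlrc5, H2-Ab1, Cd74 and Ciita had none. Of the class II presenting chains only H2-Aa and H2-Eb1 were therefore searched, and the class II windows include those of Ctss, Ifi30 and Lgmn. The genome is that of C57BL/6J, which carries the H2-b haplotype, whereas Balb/c mice carry H2-d, so the alleles in these fibroblasts may differ from the letters shown. A TGACG followed 10 to 30 bases later by CCAAT, each read on either strand, stood in 6 of 17 class I members with a window and in 1 of 8 class II members, against 1.21% of all 32851 upstream windows. The stretches are shown because they let the spacing be compared between heavy chains, light chain and class II, with every TGACG and CCAAT in capitals on whichever strand it was found (ATTGG is CCAAT on the other strand). Canx, a general chaperone, also held such a pair.

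H2-K1: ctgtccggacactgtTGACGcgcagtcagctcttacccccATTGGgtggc
H2-D1: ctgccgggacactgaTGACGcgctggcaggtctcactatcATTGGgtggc
H2-M3: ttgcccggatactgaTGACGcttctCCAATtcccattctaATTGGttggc
B2m: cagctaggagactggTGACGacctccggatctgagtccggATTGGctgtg
H2-Q7: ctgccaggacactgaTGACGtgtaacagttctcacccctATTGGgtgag
H2-Q6: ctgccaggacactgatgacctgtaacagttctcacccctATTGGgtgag
H2-Q4: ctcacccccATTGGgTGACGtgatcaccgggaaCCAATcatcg
H2-Aa: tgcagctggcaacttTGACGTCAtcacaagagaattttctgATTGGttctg

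In H2-K1 (chr17:34000354-34000403, minus strand), H2-D1 (chr17:35262978-35263027, plus strand), H2-M3 (chr17:37270173-37270222, plus strand) and B2m (chr2:122147594-122147643, plus strand) the motifs were 20 bases apart. This spacing was read from these windows and then counted in all of them, where 0.103% held it, so that share tests nothing. The motifs were 19 bases apart in H2-Q7 (chr17:35439076-35439124, plus strand). In H2-Q4 (chr17:35379529-35379571, plus strand) the TGACG stood after the ATTGG, whereas in H2-Q7 it stands before it. The 13 bases in H2-Q4 run to a later CCAAT, so they are not the same spacing and may not join an X2 and a Y box. The count of class I members above includes this pair. H2-M3 holds a further CCAAT between its motifs. H2-Aa (chr17:34287862-34287912, minus strand) has the palindromic site TGACGTCA, so its pair is 21 or 18 bases apart. H2-Q6 (chr17:35424732-35424780, plus strand) is given at the same distance before its CCAAT as H2-Q7 and differs from H2-Q7 at 1 of 49 positions, G20C, counted from 1 at the 5′ end of the stretch with the H2-Q7 base first. That difference removes the TGACG letters, and H2-Q6 had no TGACG in its window. No statement about binding follows from a match or its absence.

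The B2m and H2-K1 windows are shown whole because they give the light chain and a classical heavy chain, and carry the interferon-response letters in different forms. Capitals mark the core of the interferon-stimulated response element (ISRE), searched as TTTC and TTTC with 2 bases of any kind between them and found as GAAACTGAAA in B2m, and TGACG and CCAAT.

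B2m, chr2:122147437-122147686: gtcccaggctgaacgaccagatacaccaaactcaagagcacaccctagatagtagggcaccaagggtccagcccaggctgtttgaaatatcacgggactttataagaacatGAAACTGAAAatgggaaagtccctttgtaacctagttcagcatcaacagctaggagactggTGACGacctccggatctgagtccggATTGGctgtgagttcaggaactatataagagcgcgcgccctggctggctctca
H2-K1, chr17:34000348-34000597, minus strand: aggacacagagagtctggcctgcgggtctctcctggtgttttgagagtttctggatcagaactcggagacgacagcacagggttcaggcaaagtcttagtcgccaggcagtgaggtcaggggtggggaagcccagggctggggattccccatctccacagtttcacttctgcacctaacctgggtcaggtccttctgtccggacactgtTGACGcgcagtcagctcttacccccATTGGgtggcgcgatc

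The ISRE core stood in 3 of 17 class I windows (H2-T22, H2-T23 and B2m) and 1 of 8 class II windows (Ctss), against 2.98% of all windows, and in B2m it began 139 bases before the start site. The letters TTTCACTTC, which were searched for after the windows had been read, stood in 6 of 17 class I windows (H2-K1, H2-D1, H2-Q4, H2-Q6, H2-Q7 and H2-M3), in 0 of 8 class II windows and in 0.402% of all windows. They can be read as tttcacttc in H2-K1 above. TTCNNNGAA, the letters of the interferon-γ-activated site (GAS), stood in 2 of 17 class I windows (H2-M3 and Psmb8) and 0 of 8 class II windows, against 7.02% of all windows. TGACG alone stood in 10 of 17 class I and 2 of 8 class II windows, against 17.8% of all, and CCAAT in 12 of 17 and 6 of 8, against 33.8%. The heavy chain promoters are related sequences, so their matches are not independent. Tap1 and Psmb9 are divergent neighbours on chromosome 17 whose upstream windows overlap by 225 bases.

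**Figure D1:**
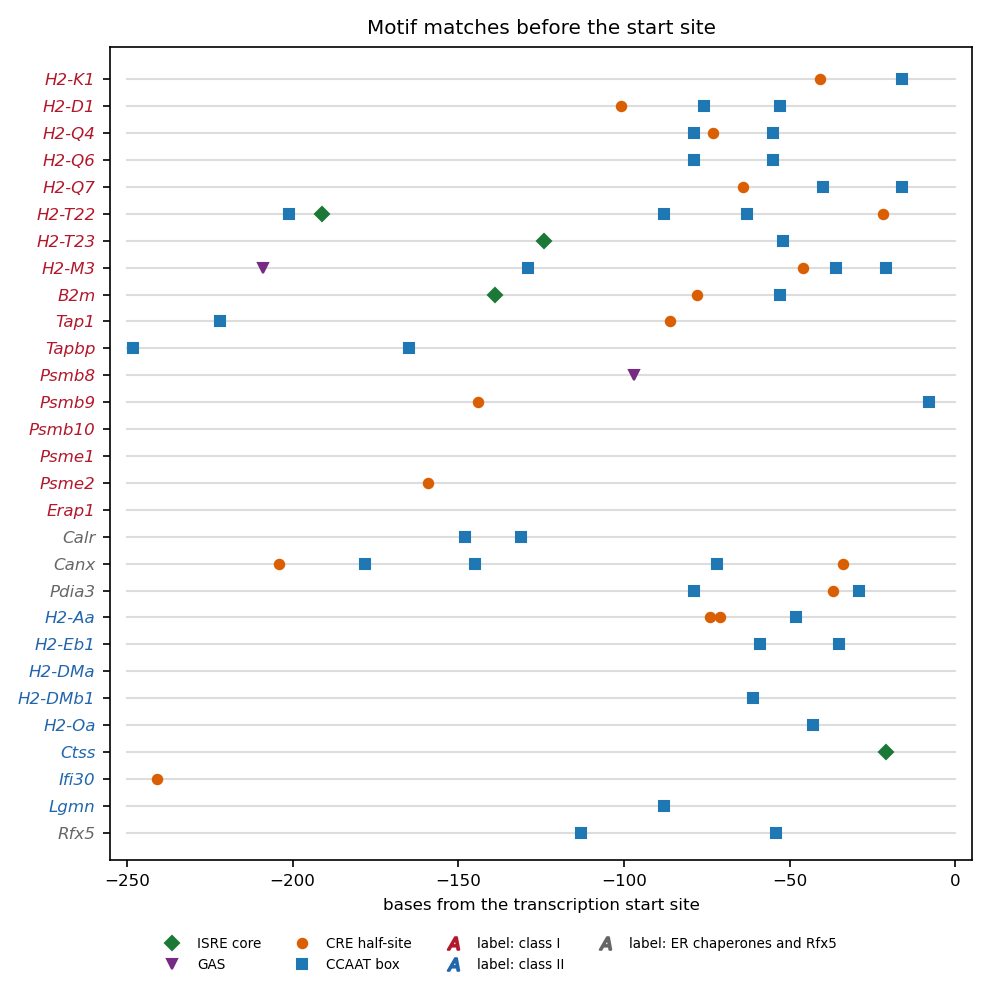
Motif matches (interferon-stimulated response element core, GAS, CRE half-site and CCAAT box, both strands) in the upstream window of each member that has one (29 of 36, first window where there are 2), by distance in bases from the start site; label colours give the class. CRE half-sites and CCAAT boxes follow each other 20 bases apart in H2-K1, H2-D1, H2-M3 and B2m, and H2-Q6 has the CCAAT boxes without the half-site.

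Fibroblast markers were high in every library. Of 10 fibroblast markers (such as Col1a1, Dcn and Pdgfra) 10 passed the filter on low values, with a median level of 14.3 on the log2 scale. Leukocyte markers were low: Ptprc, which encodes the depleted CD45, was at 3.91 and 3.77 in GSK libraries against 3.77 in both DMSO libraries, and 3 of 6 pan-leukocyte, 6 of 8 dendritic cell, 6 of 10 macrophage and 5 of 5 B cell markers in the table were under the filter. Summed linear levels were 289.5 and 297.5 (GSK) against 301.6 and 296.3 (DMSO) for dendritic cell markers, most of it from Zbtb46. For macrophage markers the sums were 409.3 and 373.3 (GSK) against 428.6 and 402.7 (DMSO), most of it from Csf1r. Epcam, which encodes the depleted CD326, was at 0.32 in all 4 libraries. Of epithelial markers 4 of 7 were under the filter, with summed linear levels of 82.13 and 79.1 (GSK) against 83.16 and 80.7 (DMSO), most of it from Krt7 and Krt18. Of endothelial markers 3 of 6 were under the filter, with sums of 253.6 and 274.6 (GSK) against 271.8 and 287.5 (DMSO), most of it from Tek. Of the 3 mesothelial markers in the table, Msln, which encodes mesothelin, was at 0.34 in both GSK libraries against 0.33 in both DMSO libraries, whereas Wt1 and Krt19 were well above the filter. Krt19 was at 8.79 and 8.56 in GSK libraries and at 9.0 and 8.93 in DMSO libraries, with a limma adjusted p of 0.157. The mesothelial sums were 1554 and 1364 (GSK) against 1631 and 1574 (DMSO) and lay below in GSK; their part in the class II values was not tested. The deposited values are log2-scale normalised levels whose read depth cannot be recovered. They lay between -1.035 and 20.578, with library medians of 6.15 to 6.16.

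None of the 33 members that passed the filter (a mean of at least 3.32, the log2 of 10) was called between GSK and DMSO at an adjusted p of 0.05 (limma with Benjamini-Hochberg adjustment over all 14548 tested genes), where 0.282% of all tested genes (41) were called, 22 higher and 19 lower. Leaving out DMSO library 1 gave 7 calls among all genes, leaving out DMSO library 2 gave 194 and leaving out GSK library 1 gave 70, and none of these was a member. At an unadjusted p of 0.05 in limma, 15 members were higher in GSK, all of class I, against 7.88% of all tested genes, and 1 was lower, Lgmn, against 8.13%. In 20 of 21 class I members both GSK libraries lay above both DMSO libraries, an arrangement shown by 24.1% of all tested genes, and the exception was H2-Q7, where both lay below, as in 24.5% of all. The median class I difference, GSK minus DMSO, was 0.15 on the log2 scale, beside -0.0007 for all tested genes, of which 49.5% were positive. Without DMSO library 1 the class I median was 0.14. For the 8 tested class II members the median was -0.08, with 1 positive and 7 negative differences. Of these 8, 6 overlapped between groups, as did 7474 of all 14548 tested genes. The members lie together, share reads or share promoter elements, so the counts are not counts of independent events.

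**Figure D2:**
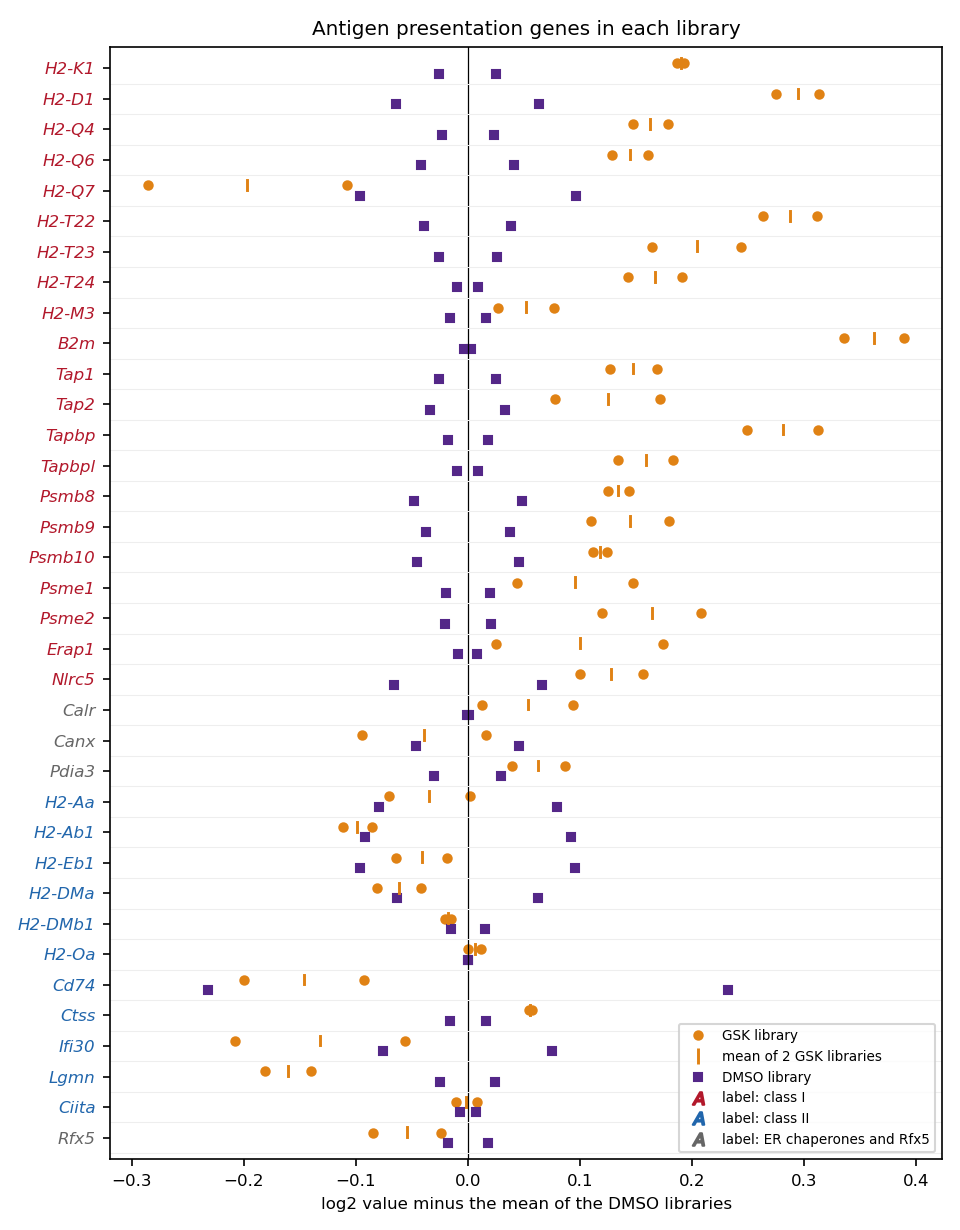
Level of each of the 36 members in each library, as the log2 value minus the mean of the 2 DMSO libraries, so that 0 is the DMSO mean; orange circles are GSK libraries, orange ticks their mean, purple squares DMSO libraries, and label colours give the class. Both GSK points lie right of both DMSO points for 20 of 21 class I members (24.1% of all tested genes). Of 8 tested class II members 6 overlap, as do 7474 of all 14548 tested genes.

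Among the classical heavy chains, which carry the peptide groove, H2-K1 (ENSMUSG00000061232, chr17:33996017-34000347) stood at 13.48 and 13.49 in GSK libraries and at 13.32 and 13.27 in DMSO libraries. Every GSK value exceeded every DMSO value. The difference was 0.19 ± 0.05 on the log2 scale (SE, n = 2 each), a 1.14-fold level, with a limma adjusted p of 0.161. H2-D1 (ENSMUSG00000073411, chr17:35262730-35267499) stood at 14.20 and 14.16 in GSK libraries and at 13.94 and 13.82 in DMSO libraries. Here too the groups did not overlap, and the difference was 0.295 ± 0.07 with a limma adjusted p of 0.118. Balb/c mice also carry H2-L, a class I gene absent from C57BL/6 mice. It was not analysed here, and its reads would be closest to H2-D1.

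B2m (ENSMUSG00000060802, chr2:122147686-122153083), the light chain of class I molecules, had the largest difference of the 36 members. Its level was 14.60 and 14.65 in GSK libraries and 14.26 in both DMSO libraries. The difference of 0.36 ± 0.06 (SE, n = 2 each), a 1.29-fold level, lay at the 99.3th percentile of the differences of all tested genes, and its limma adjusted p was 0.0688. B2m lies on chromosome 2, outside the MHC, and shared none of its 50-base transcript windows with another gene.

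The non-classical heavy chains include H2-T23, which gives Qa-1 and presents to natural killer cell receptors, H2-T22, a ligand of some γδ T cells, and H2-M3, which presents formylated peptides. H2-T22 stood at 11.47 and 11.52 in GSK libraries and at 11.24 and 11.16 in DMSO libraries, a difference of 0.29 ± 0.05 with a limma adjusted p of 0.0696. H2-T23 stood at 12.24 and 12.16 in GSK libraries and at 12.02 and 11.97 in DMSO libraries, a difference of 0.20 ± 0.05 with a limma adjusted p of 0.139. For both genes the GSK libraries were the higher ones without overlap. H2-T24 was at 8.81 and 8.86 (GSK) against 8.68 and 8.66 (DMSO), with a limma adjusted p of 0.154. H2-Q4 was at 12.69 and 12.66 (GSK) against 12.53 and 12.49 (DMSO), with a limma adjusted p of 0.184. H2-M3 had the smallest class I difference, 0.05, from 8.65 and 8.70 in GSK libraries and 8.61 and 8.64 in DMSO libraries.

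H2-Q6 and H2-Q7, which encode forms of Qa-2, had differences of opposite sign. H2-Q6 was at 10.30 and 10.34 in GSK libraries and at 10.22 and 10.13 in DMSO libraries, a difference of 0.145 ± 0.05 with a limma adjusted p of 0.216. H2-Q7 was at 10.44 and 10.27 in GSK libraries and at 10.65 and 10.46 in DMSO libraries, a difference of -0.20 ± 0.08 with a limma adjusted p of 0.326. Both GSK libraries were below both DMSO libraries, but GSK library 1 and DMSO library 2 nearly met. Over both genes summed, the level was 11.38 and 11.30 (GSK) against 11.45 and 11.30 (DMSO), a difference of -0.04, so the summed signal overlapped between groups.

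The coding sequences of H2-Q6 and H2-Q7 were 95.4% identical in the reference annotation, with 45 of 978 aligned bases different. Of 50-base transcript windows, 35.0% of H2-Q6 and 34.9% of H2-Q7 were also found in another gene, so the authors' read assignment could move signal between them. The stretch where H2-Q6 differs most from H2-Q7, at the start of the first extracellular domain, is printed for these genes and for 3 other heavy chains, with bases that differ from H2-Q7 in capitals. Each of the other 4 differed from H2-Q7 at 13 of 90 bases.

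H2-Q7: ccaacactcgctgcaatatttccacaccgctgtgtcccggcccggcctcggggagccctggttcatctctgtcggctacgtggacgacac
H2-Q6: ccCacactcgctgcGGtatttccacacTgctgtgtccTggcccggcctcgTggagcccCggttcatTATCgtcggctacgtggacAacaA
H2-Q4: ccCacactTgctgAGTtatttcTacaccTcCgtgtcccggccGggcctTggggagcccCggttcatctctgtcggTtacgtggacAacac
H2-D1: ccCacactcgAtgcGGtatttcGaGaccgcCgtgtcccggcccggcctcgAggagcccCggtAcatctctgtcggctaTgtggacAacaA
H2-K1: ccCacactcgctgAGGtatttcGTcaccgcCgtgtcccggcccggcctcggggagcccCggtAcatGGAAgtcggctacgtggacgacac

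Other members also share sequence. Psme2 shared 59.3% of its windows, all with Psme2b, and the 2 genes summed gave a difference of 0.16. H2-T22 shared 44.7%, most with H2-T10, to which its coding sequence was 96.3% identical, and their sum gave 0.26. H2-Q4 shared 39.2%, H2-T23 29.8%, H2-D1 14.3% and H2-K1 8.79%, the most of it with H2-D1, at 91.4% coding identity. The 9 heavy chains summed on the linear scale stood at 15.55 and 15.52 (GSK) against 15.36 and 15.28 (DMSO) as log2 values, a difference of 0.22. That sum is meant to limit the effect of reads divided among these 9 genes. Reads shared with genes outside them can still move it, such as those of H2-T10, which held 37.9% of the H2-T22 windows. The transformation of the deposited values is also unknown, so they need not add up to read totals. Erap1 overlaps Cast and shared 14.0% of its windows with it, and the sum of these 2 genes gave -0.03. Cast was the higher gene, at 11.53 and 11.44 (GSK) against 11.64 and 11.50 (DMSO), a difference of -0.09. The sum therefore follows Cast more than Erap1. Among class II members H2-DMb1 shared 27.2% with H2-DMb2, whereas H2-Aa, H2-Ab1, H2-Eb1, H2-DMa, Cd74, Ctss and Lgmn shared none.

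**Figure D3:**
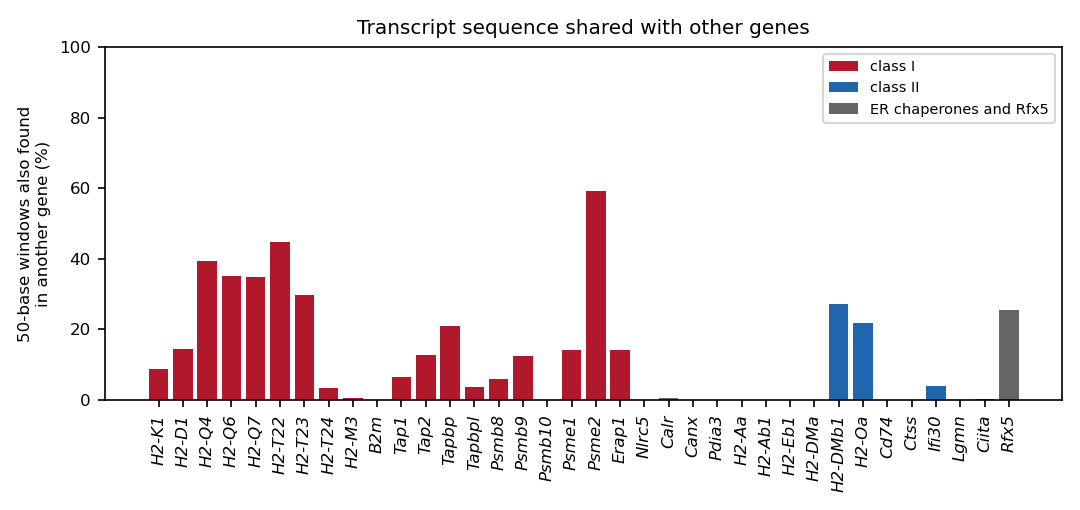
Percentage of 50-base windows of the longest coding transcript of each member that also occur, on either strand, in a transcript of another gene (GENCODE M21), coloured by class. Psme2 (59.3%) and H2-T22 (44.7%) share most, while B2m and the class II chains H2-Aa, H2-Ab1 and H2-Eb1 share none.

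In peptide transport and loading all 4 genes had both GSK libraries above both DMSO libraries, as did 24.1% of all tested genes. Tapbp, which encodes tapasin and bridges empty class I molecules to the transporter, stood at 13.19 and 13.13 in GSK libraries and at 12.90 and 12.86 in DMSO libraries. Its difference was 0.28 ± 0.05 (1.22-fold) with a limma adjusted p of 0.0809. Tap1, a transporter subunit, stood at 12.07 and 12.03 in GSK libraries and at 11.88 and 11.93 in DMSO libraries, a difference of 0.15 ± 0.05 with a limma adjusted p of 0.204. Tap2, its partner, differed by 0.125, and Tapbpl, the tapasin-like peptide editor TAPBPR, stood at 9.28 and 9.23 in GSK libraries against 9.09 and 9.11 in DMSO libraries, with a limma adjusted p of 0.162.

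The immune proteasome subunits and the PA28 activator followed the same arrangement in 5 of 5 genes (24.1% of all tested genes). Their differences were 0.10 to 0.16. Psmb8, a catalytic subunit, stood at 11.40 and 11.38 in GSK libraries and at 11.21 and 11.31 in DMSO libraries, a difference of 0.13 ± 0.05 with a limma adjusted p of 0.264. Psmb9 differed by 0.145, Psmb10 by 0.12, and the activator subunits Psme1 and Psme2 by 0.10 and 0.16. Erap1, which trims peptides in the endoplasmic reticulum, differed by 0.10. None of these 6 genes was called. Nlrc5, the class I coactivator, was at 9.36 and 9.41 in GSK libraries and at 9.19 and 9.32 in DMSO libraries, a difference of 0.13 ± 0.06 with a limma adjusted p of 0.348; DMSO library 2 was close to the GSK libraries.

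Of the constitutive proteasome genes (Psmb5, Psmb6, Psmb7, Psme3 and Psme4), 0 of 5 were called in either direction, with a median difference of -0.01. Psmb7, the counterpart of Psmb10, differed by -0.07 and Psmb5, the counterpart of Psmb8, by 0.05. Divided by transcript length, the 3 immune subunits summed to 0.97 and 0.92 of the 3 constitutive ones in GSK libraries and to 0.83 and 0.88 in DMSO libraries. Per length, Psmb10 stood at 1.73 and 1.74 times Psmb7 in GSK libraries and at 1.48 and 1.56 times in DMSO libraries, whereas Psmb9 was at 0.258 and 0.231 of Psmb6 (GSK) against 0.210 and 0.221 (DMSO). These ratios set levels of different genes side by side and depend on the transcript lengths used.

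The chaperones of general folding in the endoplasmic reticulum were among the highest genes and had small differences. Calr was at 15.01 and 14.93 (GSK) against 14.91 in both DMSO libraries, a difference of 0.05, Pdia3 differed by 0.06, and Canx by -0.04 with overlapping groups. Their limma adjusted p-values were 0.681 or more.

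Class II genes were measured at lower levels, and most of them overlapped between the groups, as did 7474 of all 14548 tested genes. H2-Ab1 (ENSMUSG00000073421, chr17:34257689-34269419), the β chain of I-A, was the highest class II chain, at 8.62 and 8.59 in GSK libraries and 8.80 and 8.61 in DMSO libraries. DMSO library 1 stood above the other 3 libraries, and the difference of -0.10 ± 0.07 had a limma adjusted p of 0.520. H2-Aa (ENSMUSG00000036594, chr17:34282744-34287823), the α chain of I-A, was at 5.45 and 5.38 (GSK) against 5.53 and 5.37 (DMSO), with a limma adjusted p of 0.815. H2-Eb1, the β chain of I-E, was at 4.77 and 4.73 (GSK) against 4.89 and 4.70 (DMSO), with a limma adjusted p of 0.787. Its α chain gene is a pseudogene in the reference haplotype and functional in H2-d; the gene annotated as H2-Ea-ps was at 3.92 and 3.97 (GSK) against 4.03 and 3.92 (DMSO).

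Cd74 (ENSMUSG00000024610), the invariant chain, was at 7.51 and 7.40 in GSK libraries and at 7.83 and 7.37 in DMSO libraries. The DMSO libraries enclosed both GSK values, and the difference of -0.15 ± 0.14 had a limma adjusted p of 0.659. Without DMSO library 1 the difference of Cd74 was 0.09, that of H2-Aa 0.045 and that of H2-Eb1 0.055, and the class II median was 0.02 in place of -0.08. The same library was the highest for Cd3e, a T cell receptor component, at 8.55 and 8.40 in GSK libraries and 9.0 and 8.55 in DMSO libraries, while Cd3d and Cd3g were at or under 0.03 in every library. Whether T cells or another source of Cd3e transcripts had a part in the class II values was not tested.

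Of the peptide exchange genes, H2-DMa, which with its partner frees the groove for peptide, was at 6.48 and 6.45 (GSK) against 6.59 and 6.46 (DMSO). H2-DMb1 was at 3.02 in both GSK libraries against 3.05 and 3.02 in DMSO libraries, and H2-Oa at -0.98 and -0.99 (GSK) against -0.99 (DMSO). H2-DMb1, H2-Oa and Ciita, the class II coactivator, were under the filter and were not tested. Ciita was at 3.14 and 3.12 in GSK libraries and at 3.12 and 3.13 in DMSO libraries. At these levels the deposited values vary little whatever the gene: the median range over the 4 libraries was 0.0178 for genes under the filter and 0.113 for tested genes, so a difference in Ciita was not detectable.

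Of the endosomal processing genes, Lgmn (ENSMUSG00000021190, chr12:102394084-102439813), an asparagine-specific protease, stood at 11.75 and 11.71 in GSK libraries and at 11.91 and 11.87 in DMSO libraries. The groups did not overlap, and the difference of -0.16 ± 0.05 had a limma adjusted p of 0.176. Ifi30, the lysosomal thiol reductase GILT, was at 9.38 and 9.23 (GSK) against 9.51 and 9.36 (DMSO), and Ctss, which cuts the invariant chain, was at 4.38 in both GSK libraries against 4.31 and 4.34 in DMSO libraries. Lgmn and Ifi30 also act in general lysosomal proteolysis and were above the class II chains in level. Rfx5, the RFX subunit that serves class I and class II promoters, was at 8.15 and 8.21 in GSK libraries and at 8.22 and 8.26 in DMSO libraries, a difference of -0.05 ± 0.05 with a limma adjusted p of 0.622.

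**Figure D4:**
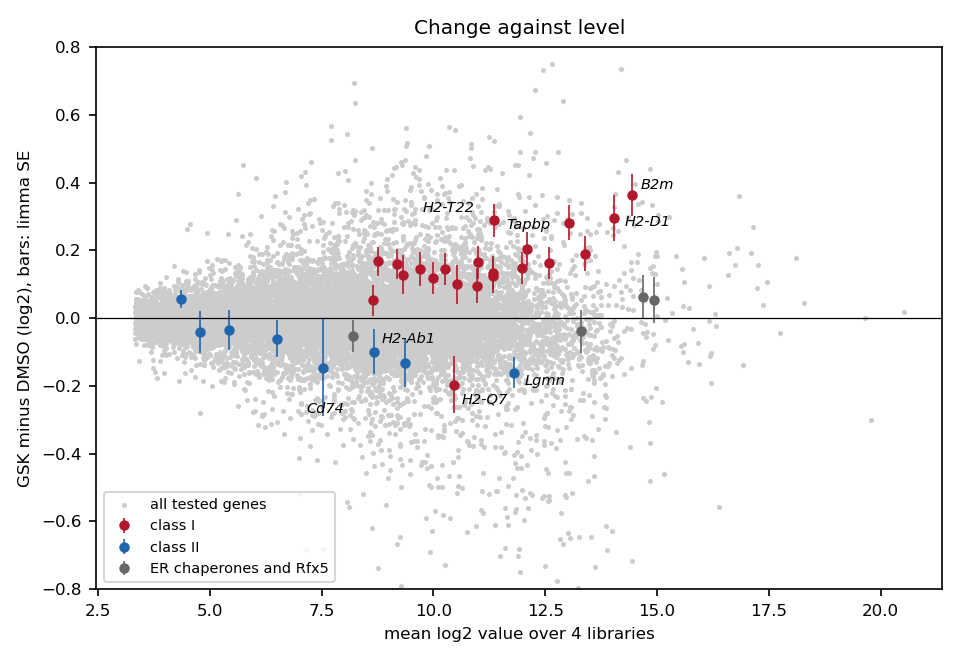
Difference between GSK and DMSO (log2) against the mean log2 level for all 14548 tested genes (grey) and the 33 tested members (class I red, class II blue, chaperones and Rfx5 dark grey; bars are limma standard errors); 18 genes lie outside the plotted range of ±0.8. Class I members lie above 0 except H2-Q7, B2m is the highest of them at 0.36, and class II members lie near or below 0.

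Levels were set on a common scale, the linear level divided by the length of the longest transcript in kilobases. H2-K1, H2-D1 and B2m lay far above the class II presenting chains. Other members of the classes interleaved, among them heavy chains: H2-Ab1 averaged 334 per kilobase beside 335 for H2-Q7 and 279 for H2-M3. B2m had 28800 and 29900 per kilobase in GSK libraries and 22800 and 22900 in DMSO libraries, at the 99.9th percentile of all genes by its mean. H2-D1 had 8920 and 8680 (GSK) against 7500 and 6870 (DMSO), and H2-K1 6100 and 6120 (GSK) against 5450 and 5260 (DMSO), at the 99.3th and 99.0th percentiles. H2-Ab1 had 325 and 319 (GSK) against 367 and 323 (DMSO), at the 84.7th percentile, and Cd74 129 and 120 (GSK) against 162 and 117 (DMSO), at the 70.3th. H2-Aa and H2-Eb1 averaged 13.4 and 16.4 per kilobase, at the 42.9th and 44.8th percentiles, and neighbours this close in level are not set in order.

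Within class I, Tapbp (2880 per kilobase on average), H2-Q4 (2380) and Psme2 (2120) came next after the classical chains, and Nlrc5 was lowest at 84.5. Within class II, the protease Lgmn (1810) and the reductase Ifi30 (675) were highest and, like H2-Ab1, above Nlrc5, H2-T24 (198) and H2-M3 (279) of class I. The protease Ctss was at 15.1, near H2-Aa and H2-Eb1, and Ciita (1.45) and H2-Oa (0.377) were lowest, at the 19.2th and 5.83th percentiles. The longest transcript of H2-Aa, at 3223 bases, is not a coding one, and its longest coding transcript has 1128 bases. For H2-Ab1 both are 1212 bases. Dividing by the longer H2-Aa length lowers its level per kilobase and raises the ratio that follows. H2-Ab1 stood 23.9 and 24.7 times above H2-Aa per length in GSK libraries and 25.7 and 25.2 times in DMSO libraries. Over the 4 libraries this ratio averaged 24.9, and 16.8 with mean transcript lengths, 13.8 with merged exon lengths and 9.36 without division by length. H2-Ab1 stood 19.8 and 20.1 times above H2-Eb1 in GSK libraries and 20.7 and 20.8 times in DMSO libraries, a mean of 20.4 that was 11.2 with merged exon lengths. These length alternatives were chosen after the data were seen, and these chains are polymorphic between haplotypes.

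Summed per length, H2-K1, H2-D1 and B2m stood 90.6 and 95.6 times above H2-Aa, H2-Ab1, H2-Eb1 and Cd74 in GSK libraries and 63.7 and 74.6 times in DMSO libraries. The ratio averaged 93.1 ± 3.55 in GSK and 69.2 ± 7.76 in DMSO (SD, n = 2 each). Its mean over the 4 libraries was 81.1, and 125 when merged exon lengths were used. The groups did not overlap. DMSO library 1, with the lowest ratio, was also the library with the highest class II values, and no test of this sum over chosen genes is given. The 2 heavy chains stood at 0.521 and 0.495 of B2m per length in GSK libraries and at 0.569 and 0.530 in DMSO libraries.

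**Figure D5:**
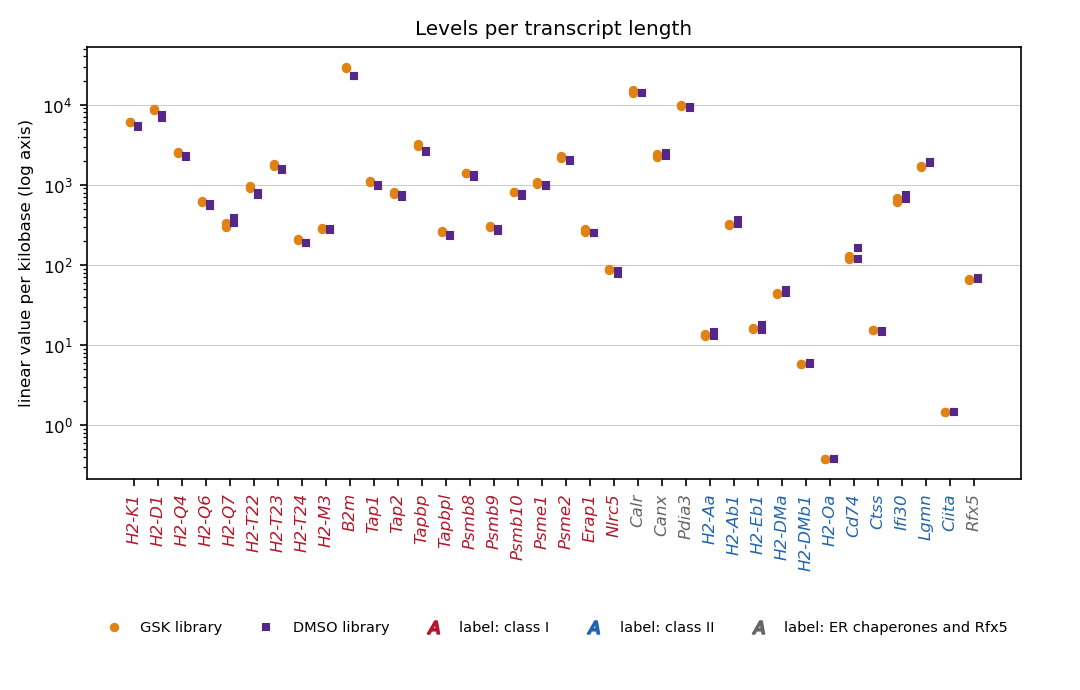
Linear level per kilobase of the longest transcript (log axis) for each member in each library; orange circles are GSK libraries, purple squares DMSO libraries, and label colours give the class. B2m, Calr, Pdia3, H2-D1 and H2-K1 lead, and the class II chains H2-Aa and H2-Eb1 stand near 13.4 and 16.4 per kilobase, with Ciita at 1.45.

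Other genes of the pathway gave 0 calls in each list. Of 13 interferon receptor and signalling genes 2 were higher and 2 lower at an unadjusted p of 0.05 in limma (background 7.88% and 8.13%), with a median difference of 0.03. Irf1, which binds class I promoters, was at 13.03 and 12.81 in GSK libraries and at 13.18 in both DMSO libraries, a difference of -0.26 ± 0.08 with a limma adjusted p of 0.185. Ifng itself, the gene of interferon-γ, was at or under -1.01 in every library.

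Of 6 tested further class I heavy chain genes, 4 had both GSK libraries above both DMSO libraries (24.1% of all tested genes) and 1, Cd1d1 at -0.09, both below (24.5%), while H2-Q10 overlapped at -0.04. The smallest p-values were those of H2-Q1 (difference 0.14, limma adjusted p 0.210) and H2-Q2 (0.13, limma adjusted p 0.229). Of 5 tested further class II genes Ctsd, a lysosomal protease, differed by 0.16 and Ctsb by 0.08, with limma adjusted p-values of 0.188 and 0.532. Of 9 further peptidases and loading factors, Hspa5 (BiP), a general chaperone, differed by -0.25 and Thop1, which destroys cytosolic peptides, by -0.14, with limma adjusted p-values of 0.174 and 0.257. Of 7 further promoter factors none passed an unadjusted p of 0.05, and Atf1 (-0.09) and Nfyb (-0.07) had the smallest p.

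Most pericyte and smooth muscle markers lay in the same direction as the class I genes, with 6 of 7 differences positive. In 4 of 7 both GSK libraries lay above both DMSO libraries (24.1% of all tested genes). In 1, Kcnj8, both lay below (24.5%), and 2 overlapped. The median difference of the 7 markers was 0.27. Their summed linear level was 19400 and 19200 in GSK libraries and 14190 and 17430 in DMSO libraries, so DMSO library 1 was the lowest. Cspg4 (NG2), a pericyte surface proteoglycan, had the largest difference of these markers. It was at 12.14 and 12.24 in GSK libraries and at 11.52 and 11.88 in DMSO libraries, with a limma adjusted p of 0.126. Kcnj8 was at 8.21 and 8.33 (GSK) against 8.42 and 8.55 (DMSO), with a limma adjusted p of 0.192. The part of these markers in the class I values was not tested. In bulk RNA a different share of a cell type and a different level per cell cannot be told apart.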

How the data were processed

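RNA of 4 fibroblast libraries was measured by sequencing, 2 from tumours of GSK269962A-treated 4T1 cells and 2 from tumours of DMSO-treated cells, grouped by the treatment label. The authors deposited normalised values on a log2 scale for 22456 Ensembl genes, 1 column per library; the log2 unit was read from the values, and no source used here states the transformation. Tools listed in the submitters' processing notes are Bowtie2, RSEM 1.2.29 and DESeq2 1.12.4, and builds are mm10 and GRCh38, with no role given. Low genes vary little on this scale, so differences may understate their change, which was not tested. Read depth is unknown, and no interval that needs it is given. Replicates held 0 identical values, with a median absolute difference of 0.0267 in GSK and 0.0249 in DMSO.

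Symbols, coordinates and lengths came from GENCODE M21 (GRCm38, the mm10 sequence), which matched 22335 IDs, and upstream windows from RefSeq (GRCm38.p6). limma 3.58.1 (R 4.3.3) was fitted to all genes whose mean reached the log2 of 10, with group as the only term, a trended variance prior, two-sided tests and Benjamini-Hochberg adjustment at 0.05; standard errors are moderated. The fit was run on simulated libraries with independent noise and larger changes than the members showed. That run checks the code and does not tell how the fit performs on these libraries. The same numbers recur in both groups' labels, but no label says that they pair libraries. Levels per length are linear values (2 to the power of the deposited value) divided by the length of the longest transcript, coding or not. The members, lists, named genes and alternatives were chosen with earlier results of these data known. Full values were given for 13 members fixed by name and the 6 others with the smallest p; context lists were given as counts with the 2 genes of smallest p, of which 1 in the interferon list is not reported here. Motifs were searched on both strands. Alternatives covered the filter, scaling, variance prior, threshold, transcript length, a replicate block and each library left out. H2-L, H2-T9, H2-Ea, H2-Eb2, H2-Ob and Nrdc were not analysed here.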

Additional observations from a re-analysis of the deposited data

How the results depend on the processing

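The number of genes called was 41, and 1 without the filter, 23 after quantile normalisation, 126 after median centring, 11 with no variance trend, 138 with a robust prior, 363 at a threshold of 0.10, and 7 to 194 with each library left out. With the replicate number as a block (replicate block), 1374 genes and 11 members were called, 9 higher (B2m, Tapbp, H2-T22, H2-D1, H2-T23, H2-K1, H2-Q4, Psme2 and H2-T24) and 2 lower (H2-Q7 and Lgmn). Same-numbered libraries deviated together with a correlation of 0.428, but with only 2 pairs and no label that pairs them, the block is given as a hint. At a threshold of 0.10, 3 members were called higher in limma (B2m, H2-T22 and Tapbp), and 0 members were called under the other alternatives. The class I median was 0.134 to 0.174 with each library left out, and the class II median -0.161 (without DMSO library 2) to 0.0209 (without DMSO library 1). Between leaving out DMSO library 2 and leaving out DMSO library 1, H2-Aa ran from -0.114 to 0.045, H2-Eb1 from -0.137 to 0.055 and Cd74 from -0.379 to 0.086, and H2-Aa was 0.002 without GSK library 2; the cause was not tested. All 21 class I members kept their sign in 11 of 11 alternatives, but most of these could not change a sign. The filter, variance prior and block settings leave the difference itself as it is. Groups that do not overlap keep their sign when any library is left out. Only quantile normalisation and median centring could have changed it. With merged exon lengths the class I to class II ratio averaged 125 in place of 81.1, and the immune to constitutive ratio 0.793 in place of 0.9; with mean transcript lengths the immune to constitutive ratio was 1.24.
The main limits are 2 libraries a group, unknown depth and values that vary little for low genes. Others are a reference of another haplotype, and near-identical heavy chain genes between which reads may have been divided.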

Other observations

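Most class I genes lie in the MHC on chromosome 17, between Tapbp and H2-M3 (chr17:33915899-37274484 on GRCm38). The 14 class I members in that segment had a median difference, GSK minus DMSO, of 0.155 on the log2 scale, and 13 of them were positive. The 7 class I members elsewhere in the genome had a median of 0.128, and 7 of 7 were positive. Of the 84 other protein-coding genes tested in the segment, with H2 genes left out, 40 were positive and the median was -0.00384. Both GSK libraries lay above both DMSO libraries in 18 (24.1% of all tested genes) and below in 19 (24.5%). In limma 3 of these 84 were called at an adjusted p of 0.05, against 0.282% of all tested genes, and all 3 were lower: Hspa1b and Hspa1a, which encode inducible heat shock proteins, and Tnxb, which encodes a matrix protein.

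Further H2 genes of the annotation, named after their values were seen, were at lower levels than the classical chains. H2-Q5 was at 9.21 and 9.13 in GSK libraries and at 9.20 and 9.02 in DMSO libraries. H2-K2 was at 7.04 and 7.12 (GSK) against 6.98 and 6.97 (DMSO), and H2-Bl at 6.24 and 6.09 (GSK) against 6.15 and 6.13 (DMSO).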
